A study of Oryza sativa with 4 samples.

Results

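The chromosome 12 block is a run of neighbouring rice genes, some of which differed in read counts between a wild type line and the mutant line bta1-1. It was taken as the rows of the count table with gene identifiers from OS12G0179700 to OS12G0203900 whose reads over the 4 libraries summed to 40 or more. Of 111 rows in that range 63 met the sum and are the members, out of 24149 genes that met it in the whole table. The range was chosen by the read counts of the lines, because several of its genes differed between them, so every difference between the lines given for a member is a description and carries no test.

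RNA was sequenced from rice seedlings (Oryza sativa, japonica) aged 7 days and grown in cycles of 14 h light and 10 h dark. There were 2 biological replicates of the wild type line SN9816 and 2 of the line bta1-1, which carries a mutation at BTA1. BTA1 is known to be LAZY1, whose product helps shoots to bend against gravity. The labels name no transgene and no treatment for either line, and they do not say from which parent line bta1-1 was derived or whether its seedlings trace to 1 plant. The libraries held 15093108 to 20334851 counted reads. Pairs of values are given for libraries 1 and 2 of a line, in that order. LAZY1 itself (OS11G0490600, on chromosome 11) had 767 and 461 wild type reads and 70 and 89 bta1-1 reads (log2 fold change -2.93, SE 0.26, adjusted p = 0.000445 by edgeR, Benjamini-Hochberg over 24396 genes). As a check of the labelled material, 4 of 4 leaf genes (RBCS and CAB loci) and 4 of 4 root genes (LSI1, NAS1, NAS2 and YSL15 loci) had reads in every library. The summed level of the leaf genes was 13800 and 21300 CPM (reads scaled to library size) in wild type and 25800 and 12800 CPM in bta1-1. For the root genes it was 1020 and 687 CPM in wild type and 641 and 844 CPM in bta1-1. Most of the leaf sum came from the CAB locus, whose mean was higher in bta1-1, while the means of the RBCS loci were lower there. The libraries of the lines overlapped at each of these leaf loci and at the LSI1, NAS1 and YSL15 loci. At the NAS2 locus both bta1-1 libraries (286 and 333 CPM) were below both wild type libraries (423 and 362 CPM). The part of leaf and root content in the differences below was not tested.

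Rice locus identifiers carry the chromosome and a number that follows the order of genes along it, so close numbers mark neighbours. Genes that lie close together are inherited together, and rice lines are known to differ by stretches of chromosome in which copies of a gene may be missing, altered in sequence or differently expressed. A table of reads assigned to a reference annotation can give few reads in each of these 3 cases, so they cannot be told apart here. The sources used here pair none of the member identifiers with a gene name, so members are described by identifier, level and gene length.

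Members were placed in classes by their values. A gene was counted as read in one line alone when both libraries of that line held 20 reads or more and both libraries of the other held 3 or fewer. It was counted as shifted when it was not in that class, the group means of CPM scaled by the trimmed mean of M-values (TMM) were at least 2-fold apart and the libraries of the lines did not overlap. All remaining members are called not shifted, which does not show that they were equal. By these rules 8 members were read in wild type alone and 1 was the reverse, 9 were shifted lower in bta1-1, 3 were shifted higher and 42 were not shifted. Of all 24149 genes with the same summed count, 0.489% belonged to the class of wild type alone, 0.215% to that of bta1-1 alone, 5.4% were shifted lower and 6.91% were shifted higher. Members in either of the lower classes numbered 17, against 4 in the higher ones. Without wild type library 1 the members shifted higher numbered 5, and without bta1-1 library 2 those read in bta1-1 alone numbered 2 and those shifted lower 6. In whole seedlings, fewer cells of a type and less RNA per cell cannot be told apart.

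Fitted with all genes, 12 members passed an adjusted p under 0.05 on the lower side and 2 on the higher side, beside 2.64% and 2.77% of all 24396 genes tested. These 14 were the 9 members read in one line alone, OS12G0179700, OS12G0179800, OS12G0180900 and OS12G0194100 on the lower side, and OS12G0199000 on the higher side. OS12G0199000 lost its call when library 1 of either line was left out. OS12G0179800 was not called without either wild type library or without bta1-1 library 2, and OS12G0194100 not without wild type library 1 or bta1-1 library 2. By limma on the deposited FPKM, the calls of OS12G0179800, OS12G0187500, OS12G0194100, OS12G0199000 and OS12G0199100 were lost on each of 3 settings, and that of OS12G0199200 without a filter on low values. The contrast chose the block, so nothing is read from these counts. The 2 libraries of each line did not overlap in 34 members that were lower in bta1-1 and in 10 that were higher, while 23.1% and 23.7% of all genes had such gaps in those directions. The median log2 fold change over the 63 members, all of which were tested, was -0.34, against -0.01 over all genes with the summed count that were tested.

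**Figure D1:**
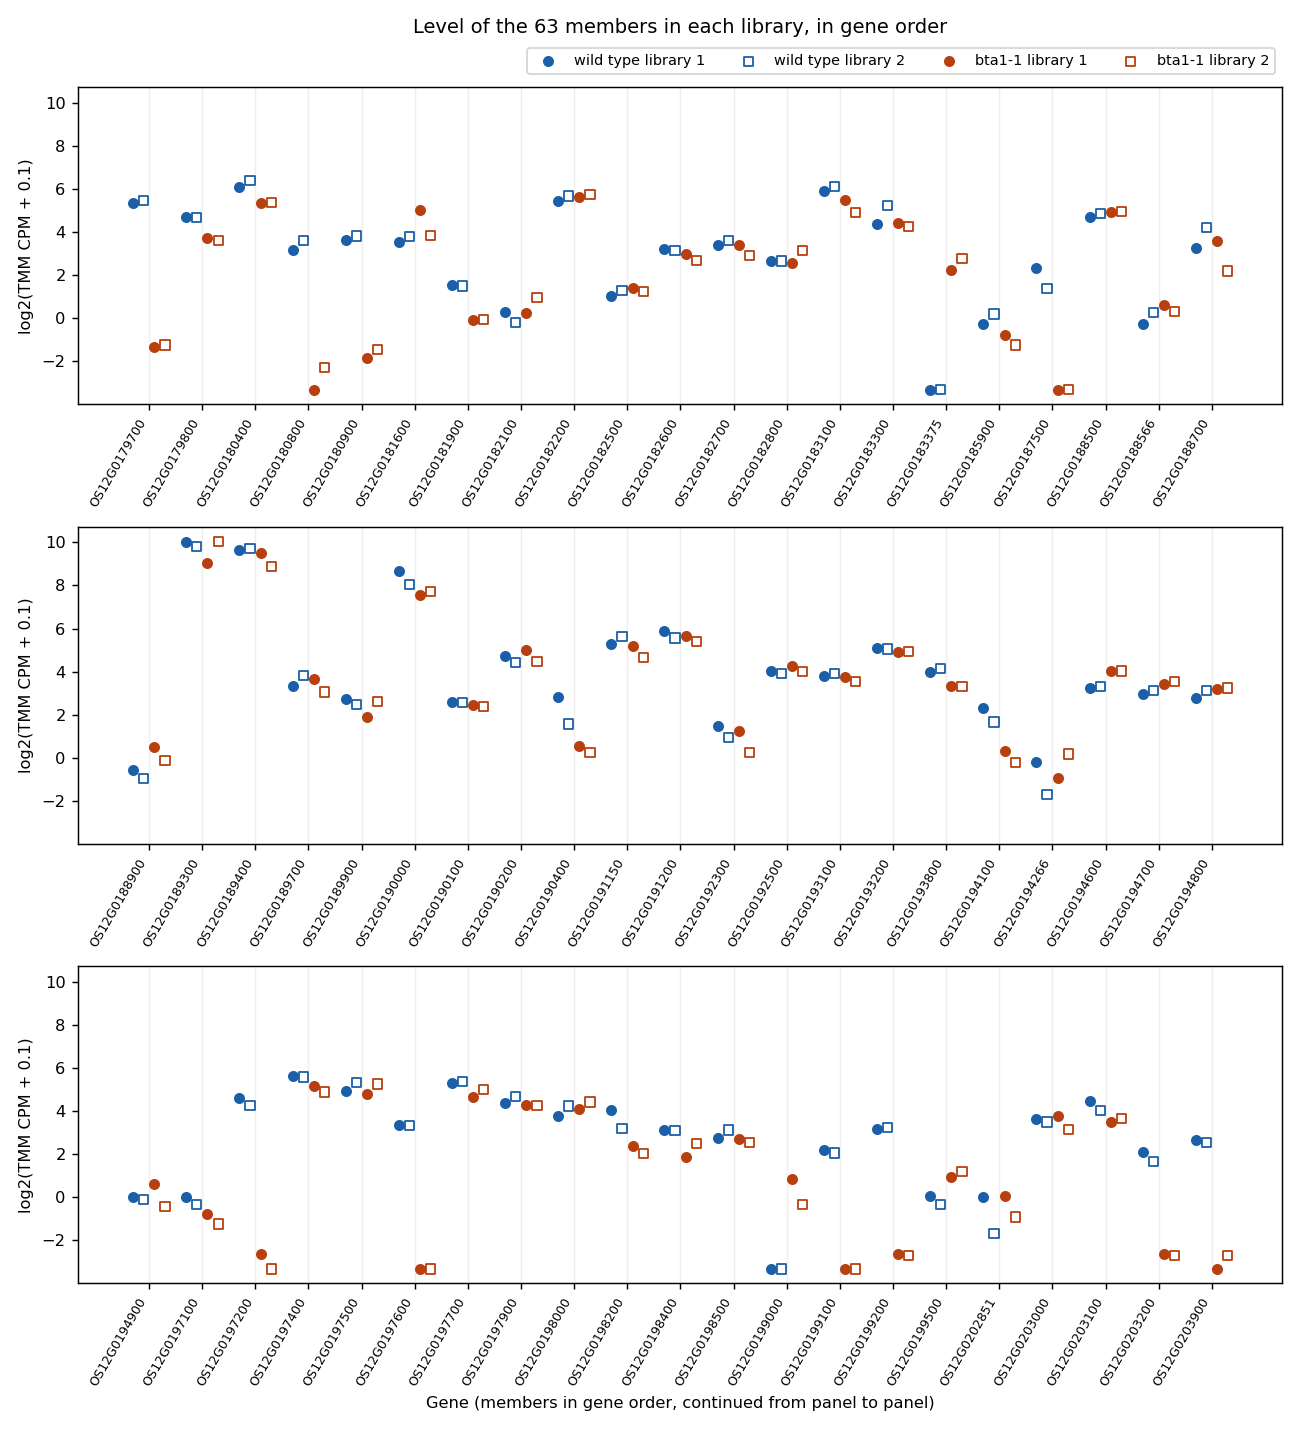
Level of each of the 63 members on a log2(TMM CPM + 0.1) axis, in gene order over 3 panels, with 1 symbol per library (blue, wild type; red, bta1-1; circle, library 1; open square, library 2). The symbols of the lines lie near each other for most members, while OS12G0179700, OS12G0180800, OS12G0180900, OS12G0187500, OS12G0197200, OS12G0197600, OS12G0199100, OS12G0199200, OS12G0203200 and OS12G0203900 have both red symbols far below both blue ones, and OS12G0183375 and OS12G0199000 have the reverse.

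The block opened with a stretch of 7 members, OS12G0179700 to OS12G0181900, of which 1 was read in wild type alone, 4 were shifted lower and 2 were not shifted. The division of the block into 3 stretches was made after the values were seen. OS12G0179700, the first member, with a gene length of 2372 bases, had 838 and 633 wild type reads and 5 and 6 bta1-1 reads. Both bta1-1 libraries lay far below both wild type libraries, and the level was 42.2 ± 2.76 CPM against 0.312 ± 0.0178 CPM (SD, n = 2 in each line). Its summed reads in bta1-1 came to 0.747% of those in wild type after scaling (95% exact interval 0.372% to 1.34%, counting error only). It missed the limit of 3 reads and so was counted as shifted lower rather than as read in wild type alone.

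The neighbour OS12G0179800 differed far less. It had 538 and 363 wild type reads against 220 and 225 bta1-1 reads, with levels of 25.6 ± 0.368 and 12.7 ± 0.710 CPM (SD, n = 2), and a log2 fold change of -1.01 (SE 0.23). The replicates lay close together in each line and the ratio of the means, 2.02-fold, was just over the limit for a shift, which it missed when wild type library 1 or bta1-1 library 2 was left out. Next in order, OS12G0180400 was just under that limit, at 1.87-fold lower, with 1425 and 1215 wild type reads and 673 and 766 bta1-1 reads and no overlap between the lines. It was among the 6 most abundant members, at 76.6 ± 11.5 CPM in wild type and 40.9 ± 0.804 CPM in bta1-1 (SD, n = 2).

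OS12G0180800 and OS12G0180900 follow each other among the members and both were nearly unread in bta1-1. Reads of OS12G0180800 were 186 and 173 in wild type and 0 and 2 in bta1-1, so it counted as read in wild type alone, with bta1-1 at 0.557% of wild type (95% exact interval 0.0672% to 2.03%). For OS12G0180900 the reads were 256 and 200 in wild type and 3 and 5 in bta1-1, which is 1.75% of the wild type level (0.752% to 3.48%). The latter was shifted lower, 58.3-fold on the means, because 1 library held more than 3 reads. It counted as read in wild type alone when bta1-1 library 2 was left out.

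The 2 other members of this stretch differed in direction. OS12G0181600 had 240 and 199 wild type reads and 537 and 266 bta1-1 reads. Its bta1-1 libraries were apart from each other, at 32.2 and 14.4 CPM. The lower of them lay just above the 11.5 and 13.9 CPM of wild type. The 1.83-fold higher mean left it not shifted, but it was shifted higher when library 2 of either line was left out. OS12G0181900 had 58 and 39 wild type reads and 14 and 16 bta1-1 reads, and its level was 3.23-fold lower in bta1-1 with little spread within a line (2.75 ± 0.0463 and 0.853 ± 0.0192 CPM, SD, n = 2).

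Rows under the summed count of 40 in this stretch pointed to wild type reads as well, which was noticed after their values were seen. From OS12G0180100 to OS12G0181533 there were 8 such rows, and 7 of them had at least 1 read in wild type while none had any in bta1-1. Together they held 67 reads in wild type and 0 in bta1-1. The largest was OS12G0180100, with 22 and 9 reads in wild type, and OS12G0181533 had 9 and 5.

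The middle of the block, 36 members from OS12G0182100 to OS12G0194900, held 30 members that were not shifted. It also held 1 member read in wild type alone, 1 read in bta1-1 alone, 3 shifted lower and 1 shifted higher. The median log2 fold change of this stretch was -0.19, against -1.68 in the stretch before it and -0.63 in the one after it. The stretches were divided with the values known, so the contrast between these medians describes how they were drawn.

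OS12G0183375, with a gene length of 670 bases, was the 1 member read in bta1-1 alone. It had 0 and 0 wild type reads and 77 and 125 bta1-1 reads, a level of 5.69 ± 1.52 CPM (SD, n = 2). Taking 3 reads in each wild type library as the floor, it was at least 32.2-fold higher in bta1-1, or 26.1-fold without bta1-1 library 2. Its neighbours among the members did not share that pattern. OS12G0183300 before it had 433 and 533 wild type reads and 360 and 353 bta1-1 reads, with overlapping levels. OS12G0185900 after it was shifted lower on few reads, 15 and 15 in wild type against 8 and 6 in bta1-1 (2.2-fold, log2 fold change -1.11, SE 0.59), and it left that class when library 2 of either line was left out.

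Next in order, OS12G0187500 was read in wild type alone, with 102 and 36 reads there and 0 and 0 in bta1-1. The wild type libraries stood apart from each other, at 4.90 and 2.51 CPM. Against a floor of 3 reads per library the gene was at least 21.7-fold lower in bta1-1. That bound was 14.7-fold without wild type library 1.

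The most abundant members, OS12G0189300, OS12G0189400 and OS12G0190000, lay in this middle stretch and were not shifted. OS12G0189300 had 21760 and 12665 wild type reads and 8653 and 19639 bta1-1 reads, and the lines overlapped, since the bta1-1 libraries were themselves 519 and 1060 CPM. OS12G0189400 had 16411 and 12014 wild type reads and 12278 and 8598 bta1-1 reads, with levels of 814 ± 35.2 and 601 ± 191 CPM (SD, n = 2). Both bta1-1 libraries were below both wild type libraries, and the log2 fold change was -0.44 (SE 0.34). The third in abundance, OS12G0190000, had 8514 and 3814 wild type reads and 3151 and 3912 bta1-1 reads (338 ± 101 and 200 ± 16.2 CPM), without overlap and at 1.69-fold lower in bta1-1.

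At lower levels, OS12G0183100 had 1243 and 993 wild type reads and 737 and 550 bta1-1 reads, without overlap and 1.75-fold lower. OS12G0191200 had 1216 and 673 wild type reads and 842 and 786 bta1-1 reads, and its lines overlapped at 52.7 ± 8.11 and 46.5 ± 5.59 CPM (SD, n = 2). These 2 genes, OS12G0180400 and the 3 above were the 6 members with the highest mean level, and all 6 were not shifted with all libraries. OS12G0180400 was shifted lower without wild type library 1, OS12G0190000 without wild type library 2 and OS12G0183100 without bta1-1 library 1.

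Shifted members of the middle stretch were few and lowly read. OS12G0188900 was shifted higher on 12 and 6 wild type reads and 22 and 15 bta1-1 reads (2.14-fold, log2 fold change 1.06, SE 0.57), and it left that class when wild type library 2 or bta1-1 library 1 was left out. OS12G0190400 had 144 and 41 wild type reads and 23 and 20 bta1-1 reads, a 3.97-fold lower mean, although the wild type libraries differed from each other at 6.92 and 2.86 CPM. OS12G0194100 had 101 and 44 wild type reads and 19 and 14 bta1-1 reads, at 3.96 ± 1.26 and 0.948 ± 0.269 CPM (SD, n = 2). The ratio of its means was 4.18-fold and its log2 fold change -2.07 (SE 0.47).

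The last stretch held 20 members, OS12G0197100 to OS12G0203900, of which 6 were read in wild type alone, 2 were shifted lower, 2 were shifted higher and 10 were not shifted. OS12G0197200 had 510 and 277 wild type reads and 1 and 0 bta1-1 reads. Its level of 21.9 ± 3.66 CPM in wild type (SD, n = 2) was the highest among the members read in one line alone, and bta1-1 was at 0.127% of it (95% exact interval 0.00321% to 0.710%).

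Directly after it, OS12G0197400 had 1013 and 686 wild type reads and 600 and 545 bta1-1 reads, and OS12G0197500 had 637 and 571 against 466 and 707. Both were not shifted. OS12G0197400 was 1.48-fold lower in bta1-1 without overlap, and OS12G0197500 overlapped between the lines. OS12G0197600 then had 214 and 145 wild type reads and 0 and 0 bta1-1 reads. Its wild type level was 10.2 ± 0.116 CPM (SD, n = 2), and it was at least 59.6-fold lower in bta1-1 against the floor of 3 reads per library. It was followed by 3 members that were not shifted, OS12G0197700, OS12G0197900 and OS12G0198000, with levels in bta1-1 of 0.714, 0.837 and 1.19 times those in wild type. The lines did not overlap at OS12G0197700 and OS12G0197900, and they overlapped at OS12G0198000. These neighbours on both sides were named for their place in the order, after their values were seen.

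OS12G0198200 was shifted lower, 340 and 130 wild type reads against 85 and 74 bta1-1 reads, with a 2.79-fold lower mean and wild type libraries of 16.3 and 9.07 CPM. It was not shifted when wild type library 1 was left out. OS12G0197100, at the start of the stretch, lay at the limit for a shift and at the limit of the summed count, with 19 and 10 wild type reads and 8 and 6 bta1-1 reads, and it was not shifted when wild type library 1 or bta1-1 library 2 was left out.

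After 2 members that were not shifted came 3 that differed in opposite directions. OS12G0199000 had 0 and 0 wild type reads and 28 and 13 bta1-1 reads, which put it among those shifted higher because 1 library was under 20 reads. It was at least 6.74-fold higher in bta1-1 against the floor of 3 reads per library, and at least 3.98-fold without bta1-1 library 1. It counted as read in bta1-1 alone when bta1-1 library 2 was left out. OS12G0199100, with a gene length of 4161 bases, had 93 and 58 wild type reads and 0 and 0 bta1-1 reads, at least 24.9-fold lower. OS12G0199200, 2935 bases long, had 184 and 134 wild type reads and 1 and 1 bta1-1 reads, or 0.629% of the wild type level (95% exact interval 0.0758% to 2.29%). So OS12G0199000 was read in bta1-1 and not in wild type, and both genes after it the other way round, with wild type replicates close to each other (4.26 ± 0.298 and 9.10 ± 0.360 CPM, SD, n = 2).

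OS12G0199500 was shifted higher, 20 and 10 wild type reads against 30 and 40 bta1-1 reads (2.39-fold, log2 fold change 1.23, SE 0.48). After it, 3 members were not shifted. The block closed with a pair read in wild type alone. OS12G0203200, the shortest gene of that class at 514 bases, had 88 and 44 wild type reads and 1 and 1 bta1-1 reads, or 1.51% of the wild type level (95% exact interval 0.181% to 5.58%). OS12G0203900, the last member, had 131 and 83 wild type reads and 0 and 1 bta1-1 reads, or 0.467% (0.0118% to 2.63%). Its wild type level was 6.04 ± 0.356 CPM (SD, n = 2).

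Over the 8 members read in wild type alone, wild type held 2458 reads and bta1-1 8, and no bta1-1 library had more than 2 reads of any of them. In 3 of these members, OS12G0187500, OS12G0197600 and OS12G0199100, both bta1-1 libraries were at 0. No source used here states whether counting used strand. Reads from overlapping and antisense genes therefore cannot be told apart, and how reads of near-identical copies were assigned is not stated either.

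**Figure D2:**
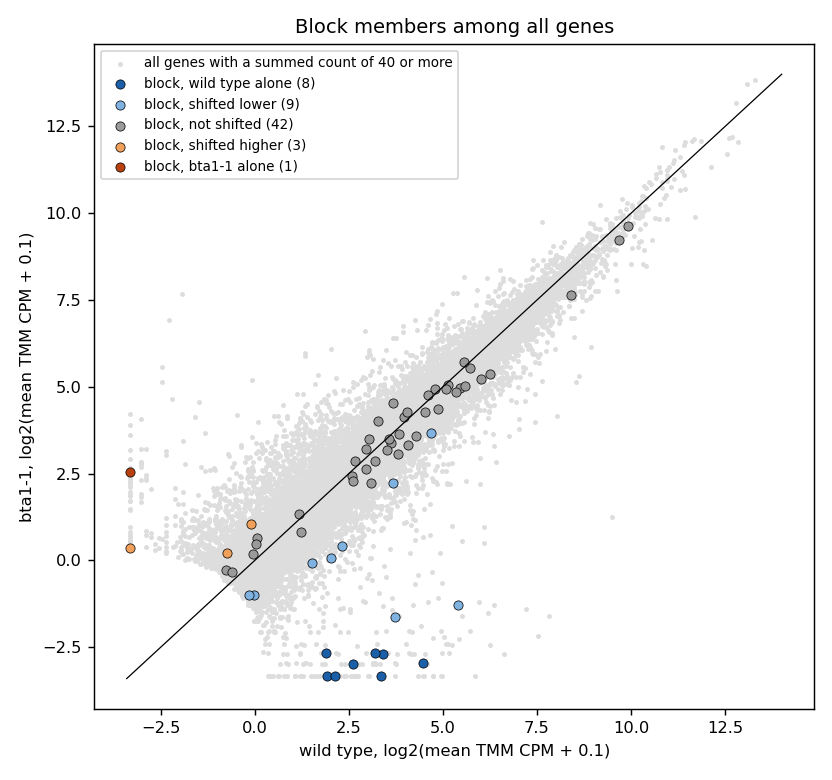
Mean level in bta1-1 against mean level in wild type, both as log2(TMM CPM + 0.1), for 24149 genes (grey) and the 63 members (coloured by class); the line marks equal levels. The 42 members not shifted lie near the line, more of them below it than above. The 8 read in wild type alone lie along the bottom of the plot among other genes with hardly any reads in bta1-1.

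The 42 members that were not shifted had log2 fold changes from -0.91 to 0.87, with a median of -0.19, beside -0.02 over all genes that were not shifted. Of these members 26 had a fold change below 0 and 16 above it. The lines overlapped in 19 of them, in 17 (40.5%) both bta1-1 libraries were lower and in 6 (14.3%) both were higher. Over all 21005 genes that were not shifted, these shares were 19.8% and 19.0%. In 32 of the 42 the means were within 1.5-fold of each other, and 0 of the 42 were called by edgeR in the main fit. Without the filter on low counts, edgeR called OS12G0181600 higher and OS12G0180400 and OS12G0183100 lower.

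OS12G0193200 was among those with the least spread, with 707 and 474 wild type reads and 508 and 561 bta1-1 reads, or 33.5 ± 0.633 and 30.4 ± 0.0516 CPM (SD, n = 2). OS12G0194600 leaned the other way, from 9.61 ± 0.332 CPM in wild type to 16.2 ± 0.0380 CPM in bta1-1, a 1.69-fold higher mean. The replicates of both genes lay close together, and both genes were chosen after their values were seen.

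Replicates of the same line, whose ratio played no part in choosing the block, differed by similar amounts among the members and elsewhere. The median size of the log2 ratio between the 2 wild type libraries was 0.27 over the members and 0.32 over all 24149 genes, and between the 2 bta1-1 libraries it was 0.32 and 0.34 (each on TMM CPM + 0.1). The corresponding size between the lines was 0.56 over the members and 0.31 over all genes, which describes how the block was chosen. The widest gap within wild type was at OS12G0202851, with 19 and 3 reads (log2 ratio 1.71), and the widest within bta1-1 was at OS12G0188700, with 199 and 83 reads (1.39).

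Members covered a wide range of levels and lengths. By the deposited FPKM, which is per gene length, the median level over the 4 libraries was 6.21 FPKM for the members and 8.95 FPKM for all genes with the summed count. The median gene length was 1542 bases for the members and 1465 for those genes. The 8 members read in wild type alone had a median of 6.41 FPKM in wild type, from 1.01 to 16.8, beside a median of 5.03 FPKM over the 118 such genes of the whole table. Their gene lengths ran from 514 to 4161 bases with a median of 1598, beside 1256 for those 118 genes. Members that were not shifted had a median of 11.7 FPKM in the line with the higher mean and ran from 0.319 to 1220 FPKM. A class with a minimum of 20 reads leaves out lowly read genes, so these levels depend on the class limits.

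**Figure D3:**
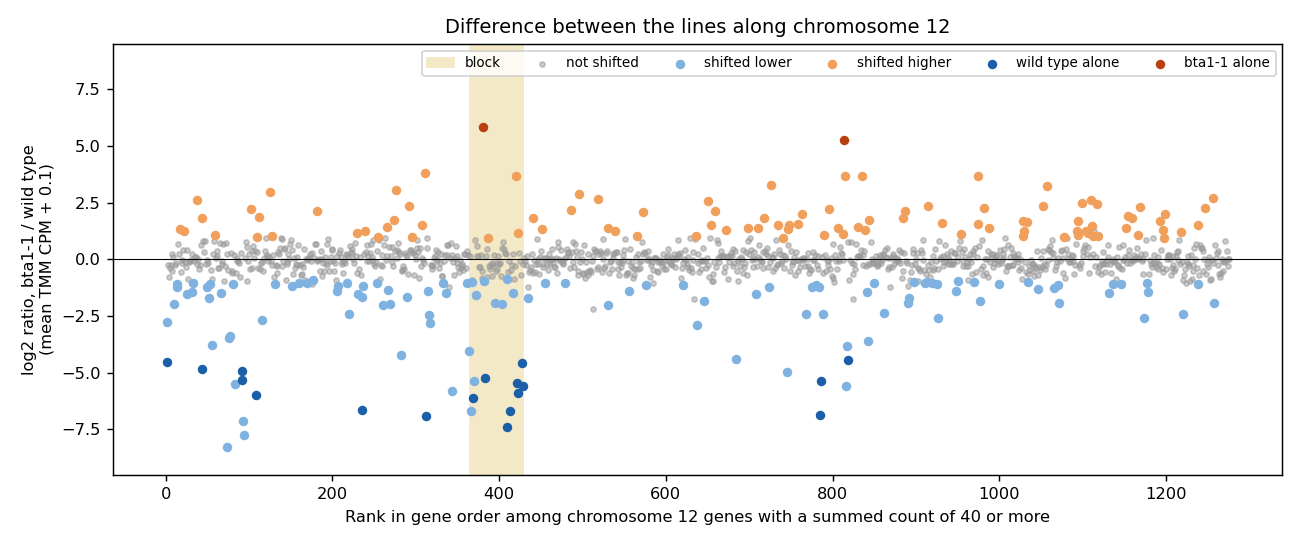
Log2 ratio of the mean levels (bta1-1 over wild type, TMM CPM + 0.1) for 1276 genes of chromosome 12 in gene order, coloured by class, with the block shaded at ranks 366 to 428. Genes read in one line alone gather in the shaded range, 9 of the 20 on the chromosome. The other 11 lie between rank 2 and rank 818, and some of them also lie close together. Such groups are at ranks 91, 92 and 108 and at ranks 785, 786, 814 and 818.

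Seen along the chromosome, the members took ranks 366 to 428 of 1276 genes with a summed count of 40 or more. Of the 170 genes in the whole table that were read in one line alone, 5.29% were members, while members were 0.261% of the genes. Windows of 50 consecutive genes lying wholly inside the block held 4 to 8 genes read in one line alone. The 1115 windows on chromosome 12 that touched no member held a median of 0 and at most 4. Counting shifted genes as well, windows inside the block held 12 to 16 genes and the others a median of 8 and at most 16, so the block did not exceed every other part of the chromosome by that count. These are descriptions of a range selected for this pattern.

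The 50 genes before the block (OS12G0168100 to OS12G0178700) and the 50 after it (OS12G0204500 to OS12G0235600) held 0 genes read in one line alone. Before the block 7 of 50 genes were shifted lower and 0 higher, and after it 2 were lower and 2 higher. By edgeR 4 of 49 tested genes before it were lower and 0 were higher, and 0 of 49 tested genes after it were called in either direction. Elsewhere on chromosome 12, among 1213 genes, 10 were read only in wild type by these limits and 1 only in bta1-1, and 97 were shifted lower and 94 higher.

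At the edges, OS12G0178700, the nearest gene before the block, had 343 and 322 wild type reads and 379 and 372 bta1-1 reads, and the lines overlapped. The gene before that one, OS12G0178200, lay outside the range and was also low in bta1-1. It had 160 and 96 wild type reads and 6 and 6 bta1-1 reads, a 21-fold lower mean, and it is named here after its values were seen. On the far side OS12G0204500 had 110 and 144 wild type reads and 116 and 118 bta1-1 reads, with a level of 7.67 ± 3.37 and 6.67 ± 0.399 CPM (SD, n = 2). The last member, read in wild type alone, was thus followed by a gene at overlapping levels in both lines. The range was chosen by differences between the lines, so the contrast with the genes beside it describes how it was drawn.

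**Figure D4:**
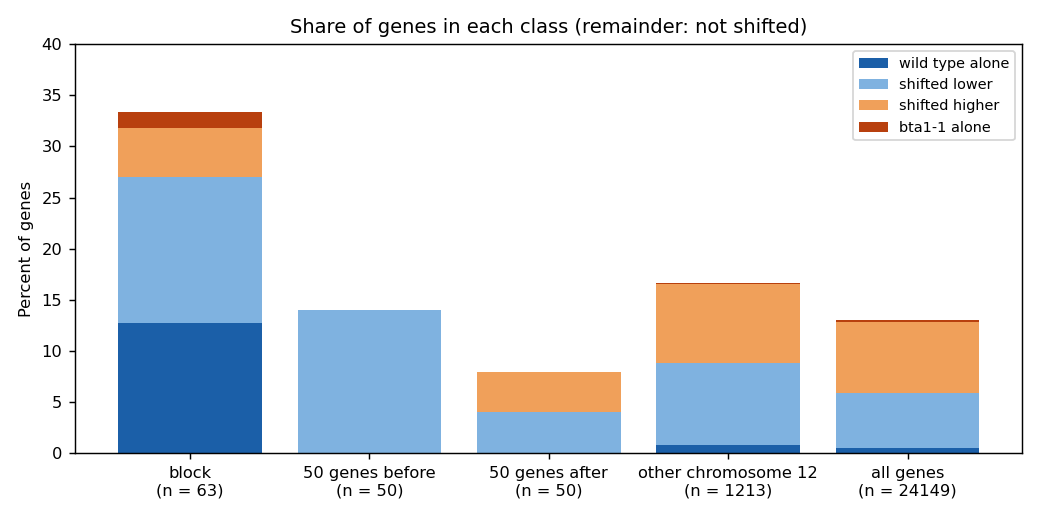
Percent of genes in each class for the block, the 50 genes before and after it, the other genes of chromosome 12 and all genes with a summed count of 40 or more; the part of each bar up to 100% that is not drawn is the not shifted class. The block bar reaches 33.3%, with 12.7% read in wild type alone, and the neighbouring windows reach 14% and 8% with no gene read in one line alone.

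The other 48 rows in the range had summed counts under 40, and 25 of them had no read in any library. Of the 23 with reads, 10 had reads in wild type and none in bta1-1, and 4 had the reverse, mostly on a handful of reads. OS12G0193000 was the clearest of the latter, with 0 and 0 wild type reads and 9 and 6 bta1-1 reads. Just outside the limit of the sum, OS12G0182300 had 37 reads in all (18 and 9 in wild type, 2 and 8 in bta1-1) and OS12G0187800 had 33 (13 and 9, 1 and 10). Just inside it, OS12G0199000 had 41 and OS12G0197100 had 43. At these depths 1 read was worth 0.0481 to 0.0698 CPM, so values of such rows rest on few reads.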

How the data were processed

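Libraries for Illumina sequencing were prepared from seedling RNA, per the labels' protocols. The authors deposited whole-number read counts per gene without normalization, and FPKM values for the same genes. Per the submitters' processing notes, the build was IRGSP-1.0, and HTSeq 0.6.1, TopHat2 2.0.12 and Bowtie2 2.2.3 are named without roles. Gene lengths were taken from counts, FPKM and library totals, and 100% were whole to 0.01 base. The 91960 rows were fitted with edgeR 4.0.16 in R 4.3.3 by its robust quasi-likelihood test (two-sided, no covariate, TMM scaling, Benjamini-Hochberg), keeping genes by filterByExpr at a count of 10 and a total of 15. Each standard error is the fitted log2 change over the root of F. The fit was tested on simulated data. Exact intervals are Clopper-Pearson at 95% on summed reads; they and floors of 3 reads per library cover counting error only. Each p-value sets the difference between the lines against the spread between these libraries. It does not cover other plants of either line. DESeq2 1.42.0, limma 3.58.1 on log2(FPKM + a pseudocount), other scalings, filters and limits, and leaving out each library were alternatives.

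The members, classes and lists were chosen with earlier results of these data known. Named genes were LAZY1, all members read in one line alone or shifted (up to 10 per direction, by fold), the 6 most abundant members overall and among those not shifted, and the edges in position and in summed count. Also named were rows under the sum where one line had 5 reads or more per library and the other 0. Names of LAZY1 and the leaf and root loci rest on published identifiers.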

Additional observations from a re-analysis of the deposited data

How the results depend on the processing

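With 2 libraries per line, leaving out 1 library moved the small counts. Without a library in turn, members read in wild type alone numbered 8 to 9 (the 8 were kept each time), members read in bta1-1 alone 1 to 2 (OS12G0199000 joined without bta1-1 replicate 2), shifted higher 3 to 5 (5 without wild type replicate 1, with OS12G0194266 and OS12G0202851) and shifted lower 6 to 12 (6 without bta1-1 replicate 2). Called members numbered 1 to 3 higher (1 without wild type replicate 1 or bta1-1 replicate 1, where OS12G0199000 was lost) and 10 to 15 lower. Calls over all genes ran from 401 to 1202 higher (401 without wild type replicate 2, 1202 without bta1-1 replicate 1) and from 482 to 854 lower. A limit of 20 reads against 0 left 3 members in wild type alone, and 10 against 1 gave 2 in bta1-1 alone. A limit of 4-fold left 1 member shifted higher and 3 lower, and a summed count of 80 left 1 shifted higher. Without a filter on low counts edgeR called 1582 genes higher and 1322 lower, and 3 members higher and 17 lower. The DESeq2 Wald test called 1002 genes higher and 873 lower, and 2 members higher and 15 lower. It added OS12G0180400, OS12G0190400 and OS12G0198200 on the lower side.

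Limma on log2(FPKM + 1) called 144 genes higher and 284 lower, on log2(FPKM + 0.1) 149 and 275, and on log2(FPKM + 1) without a filter 44 and 125. It called 1 member higher on each of these settings, and 8, 8 and 7 lower, all of them called by edgeR. With the replicate block, 359 genes were called higher and 415 lower, and 2 members higher and 10 lower, without OS12G0179800 and OS12G0194100. The labels do not tie equal numbers together, and the differences between replicates 1 and 2 of the lines correlated at -0.416 across genes. A crossed pairing, added after seeing the data, called 1972 genes higher and 1772 lower, and 4 and 21 members. The cause of these changes was not tested. LAZY1 stayed called in the 7 alternative fits tabulated for it (adjusted p 3.21e-06 to 0.0351 by edgeR or limma). Of 222 fold changes of 32 other named genes 3 changed sign, at OS12G0178700, OS12G0189300 and OS12G0204500, which were not shifted.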
